A study of Homo sapiens with 41 samples.

Results

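CTCF is a zinc finger protein that binds a defined DNA motif, and cohesin is a ring-shaped complex, with RAD21 as one of its subunits, that extrudes chromatin loops until it meets CTCF. Sites where both are found are known as loop anchors and domain boundaries. CTCF is also found at sites where no cohesin is detected, and these are described here for positions away from gene ends. In T47D cells, an established luminal breast carcinoma line, 67597 regions carried a CTCF peak in at least 1 of 3 lists from unstressed cells, and 25605 of them in all 3. Of these 25605, 5242 (20.5%) overlapped no RAD21 peak in any of the 3 unstressed RAD21 lists and lay over 1 kb from every protein-coding gene end. These 5242 sites, called members below, were chosen by the measured CTCF and RAD21 peaks of unstressed cells, so their 100% CTCF and 0% RAD21 in those 6 lists are the rule and no finding. By position, 2727 members (52.0%) lay inside a protein-coding gene and 2515 (48.0%) between genes.

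All cells had been deprived of steroids and serum before the experiment. Unstressed cells (3 CTCF, 3 RAD21 and 2 RNA polymerase II libraries) were compared with cells kept in 110 mM NaCl for 7.5 min (2 CTCF), 30 min (1 CTCF) or 1 h (3 CTCF, 3 RAD21, 2 Pol II), and with cells returned to isotonic medium for 1 h after 1 h of NaCl, called recovery (1 CTCF, 3 RAD21). Unstressed, 1 h and recovery cells were also profiled with triptolide, an inhibitor of transcription initiation, at 500 nM from 2 h before (1 CTCF and 1 RAD21 library each). The series text gives 100 mM NaCl where the titles give 110 mM. Of the libraries with a list, 12 carry no replicate number in the title and are called unnumbered. They comprise the third library of the CTCF and RAD21 unstressed and 1 h groups and of RAD21 recovery, the CTCF recovery library and all libraries with triptolide. In 6 of these 12 the title and a second label disagree on triptolide: the unstressed and 1 h triptolide libraries and the recovery libraries without triptolide, for both proteins. The titles were followed. No label says that replicates were separate cultures, so the tests measure the spread between libraries, which may be technical. For CTCF and RAD21 the unstressed spread also includes differences between sets of sites, as described below.

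Each library had its own peak list, of 20678 to 59843 peaks for CTCF, 3344 to 40969 for RAD21 and 88046 to 216968 regions for Pol II. Read depth was not given in the sources used here. A missing peak therefore means that none was called, and the lists of 1 h NaCl were shorter for both proteins (CTCF 22018 to 35374 against 38571 to 59843 unstressed, RAD21 4761 to 7843 against 13762 to 24931); the part of list length in the results was not tested except as stated. Of 10 luminal marker genes, 8 were covered by Pol II in the unstressed lists and KRT18 and SPDEF were at 0, with a median coverage of 100% and 93.4% of the gene. The 19 markers of other lineages had medians of 0.706% and 0%, with 7 and 10 at 0.

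Sequence could be shown where a promoter window (250 bases before to 50 after a RefSeq gene start, GRCh38.p14, 34789 distinct windows) held the peak summit. This was so for 69 members, 39 at starts of lncRNA genes and 30 at protein-coding starts inside the outer bounds of their gene. The letters CNAGGNGGC or CNAGANGGC, the core of the CTCF motif, were searched on either strand in every promoter window holding the summit. A match was found for 24 of the 69 members (34.8%) and 82 of 180 distal sites with cohesin (45.6%). It was also found for 96 of 255 CTCF sites without cohesin at gene ends (37.6%). Of all windows of this length 16.1% held a match, counted per window and not per site. In the 24 members the nearest match lay a median of 18 bp from the summit, and within 50 bp in 79.2%. A match is a description of letters and a window without one says only that these letters are not in it. The following stretches of 61 bases come from RefSeq, read 5′ to 3′ on the strand of the gene, with the match in capitals (for LOC107984881 the capitals are the reverse complement of the motif). They belong to the 8 highest-ranked members whose match lay wholly before the gene start, without the 1 whose match was 89 bp from the summit, and show the motif at CTCF sites where no unstressed list without triptolide held a cohesin peak. With triptolide unstressed, 4 of the 7 (LINC01285, LOC105375567, LOC107984881 and CPNE4) did have a RAD21 peak.

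LOC105377308: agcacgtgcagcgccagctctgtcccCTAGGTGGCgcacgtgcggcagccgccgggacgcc
LINC01285: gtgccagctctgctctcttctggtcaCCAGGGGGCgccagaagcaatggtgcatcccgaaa
LOC105375567: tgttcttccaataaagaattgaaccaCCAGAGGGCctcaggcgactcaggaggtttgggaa
LOC107984881: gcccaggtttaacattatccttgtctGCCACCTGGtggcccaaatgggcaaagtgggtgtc
KCNJ5-AS1: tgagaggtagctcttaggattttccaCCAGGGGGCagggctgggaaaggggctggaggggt
CPNE4: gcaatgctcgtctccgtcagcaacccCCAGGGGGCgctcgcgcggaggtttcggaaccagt
RBFOX3: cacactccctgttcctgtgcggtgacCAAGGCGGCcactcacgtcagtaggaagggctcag

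The stretch of LOC105377308 (lncRNA, minus strand, chr4:82285326-82285386) had its match 22 bp from the summit and its site carried a CTCF peak in all 13 CTCF lists. The same 13 of 13 held for LINC01285 (lncRNA, plus strand, chrX:118839461-118839521), LOC107984881 (lncRNA, minus strand, chr16:66954238-66954298) and CPNE4 (a copine gene, minus strand, chr3:132035046-132035106). By contrast, LOC105375567 (lncRNA, minus strand, chr7:150877256-150877316) and RBFOX3 (a neuronal splicing factor gene, minus strand, chr17:79659072-79659132) were missing from the unnumbered 1 h list and the 1 h list with triptolide. KCNJ5-AS1 (antisense lncRNA, minus strand, chr11:128906053-128906113) was missing from those 2 lists and from the 30 min list. The same letters, CCAGGGGGC, thus stood in sites kept in every list (LINC01285, CPNE4) and in 1 that was not (KCNJ5-AS1).

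The members were weaker CTCF sites than distal sites with cohesin. Fold enrichment over background, as the authors' peak caller gave it, had medians of 20.2, 12.5 and 5.55 at members in unstressed replicates 1, 2 and the unnumbered library. At the 7851 distal sites with RAD21 in all 3 lists the medians were 28.2, 15.5 and 11.8. The median merged width was 509 bp against 617 bp. Summits of the 3 lists lay within a median of 29 bp of each other at members and 21 bp at cohesin sites. In-gene and intergenic members had median widths of 511 and 508 bp. Their median folds were 19.7 and 20.8 in replicate 1, 11.7 and 13.4 in replicate 2, and 5.55 in both in the unnumbered library. These values come from the lists that chose the sites and are a description without a test.

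The median member lay 20.2 kb from the nearest protein-coding gene end (16.0 kb in genes, 27.9 kb between genes). From summit to summit, the nearest unstressed RAD21 peak was a median of 20.1 kb away and within 1 kb at 1.35% of members. Measured from the edges of site and peak, 5052 of the 5242 members had no unstressed RAD21 peak within 1 kb. The nearest distal CTCF-cohesin site was a median of 71.0 kb away and the nearest other member 111 kb away, again between summits. Inside a lncRNA gene lay 14.7% of members and 18.7% of distal cohesin sites. By chromosome, members made up 16.8% of the shared CTCF sites of chromosome 5, the lowest share, and 27.8% of those of chromosome 19, the highest. At the distance limit, the sites near ADAMTS10 (1003 bp) and HGSNAT (1006 bp) were just inside the rule, and those in IL2RB (1000 bp) and DOCK6 (994 bp) just outside.

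How firmly the class is defined was examined by leaving libraries out of the rule. Without the unnumbered unstressed CTCF library the rule gave 17756 sites, and without the unnumbered unstressed RAD21 library 9122. Leaving out any other of the 6 lists gave 5348 to 7339. Sites chosen without 1 unstressed CTCF library had a CTCF peak in that library in 98.4% (replicate 1), 71.5% (replicate 2) and 29.7% (unnumbered) of cases. Distal cohesin sites chosen in the same way had one in 98.6% of cases in the unnumbered library. Sites chosen without 1 unstressed RAD21 library had a RAD21 peak in it in 6.18%, 2.84% and 42.5% of cases. Being without a cohesin peak thus depended on which RAD21 list was read, and the unnumbered list, with 24931 peaks, was the longest of the 3.

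Under NaCl, the share of members with a CTCF peak was below the 100% that the rule sets for unstressed cells, by amounts that differed between libraries. At 7.5 min a peak was found at 86.9% of members in replicate 1 and 77.4% in replicate 2. The 30 min library had one at 63.9% (95% exact Clopper-Pearson interval 62.6% to 65.2%; all such intervals cover counting error only). At 1 h the shares were 86.5% and 79.2% in replicates 1 and 2 and 31.9% in the unnumbered library, which was far below the others. Over all shared CTCF sites the shares were 94.9% and 87.5% at 7.5 min, 78.3% at 30 min, and 93.4%, 88.8% and 58.1% at 1 h. CTCF sites without cohesin at gene ends had 90.5% and 67.9%, 56.5%, and 93.5%, 82.4% and 58.9% in the same order. These were below members in 7.5 min replicate 2 and at 30 min, and above members in the other libraries. Distal cohesin sites had 99.1% and 94.8% at 7.5 min, 88.5% at 30 min, and 97.8%, 94.9% and 80.6% at 1 h. In each of the 6 libraries the members were below the cohesin sites, and in-gene members were below intergenic ones, for example 60.8% against 67.4% at 30 min.

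**Figure D1:**
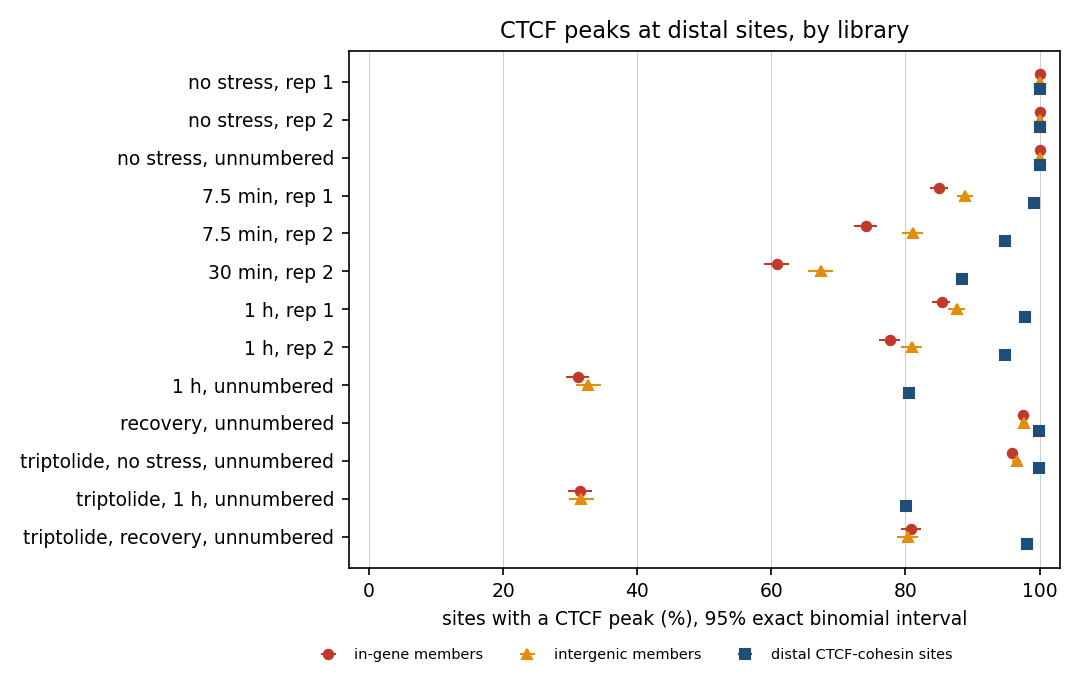
Percent of sites with a CTCF peak (horizontal axis) in each of the 13 CTCF libraries, for in-gene members, intergenic members and distal CTCF-cohesin sites, with 95% exact binomial intervals. The unstressed values are 100% by the rule, and the 2 unnumbered 1 h libraries, with and without triptolide, hold the lowest values for members, near 32%.

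Because the rule sets the unstressed share to 100%, the tests used the left-out values above, with every other library's share averaged over the 3 sets of sites so chosen. On that scale CTCF peaks were found at 69.9%, 63.2% and 23.8% of sites at 1 h (replicates 1, 2 and unnumbered; mean 52.3% ± 24.9, SD, n = 3) and at 66.5% ± 34.6 unstressed (n = 3). The groups overlapped, and each 1 h value lay below the unstressed value of the same number (or, for the unnumbered libraries, of the unnumbered one). Each unstressed value came from its own set of sites, whereas each 1 h value was a mean over all 3 sets. The spread of the unstressed values thus includes differences between the sets. In these sets 1 h replicate 1 had a peak at 86.5%, 69.8% and 53.3% of sites. The difference of -14.2 percentage points gave p = 0.5 in an exact 2-sided permutation test over libraries, where 0.1 is the smallest p that 3 against 3 allows. It turned to 1.36 points without unstressed replicate 1 and to 0.00737 without the unnumbered 1 h library. With lists of equal length (the 22018 strongest peaks of each CTCF and the 4761 strongest of each RAD21 list) it was -2.16 (exact permutation p = 0.9). There the rule was applied again to the cut lists, and sites whose RAD21 peaks fell outside the 4761 strongest counted as without cohesin. The 7602 sites so chosen are another set than the members, so this setting does not isolate list length. At 7.5 min the mean was 64.9% ± 5.39 (n = 2), a difference of -1.59 points (exact permutation p = 1, smallest possible 0.2), with the opposite sign without unstressed replicate 1 (8.19), without the unnumbered unstressed RAD21 library (1.05), without 7.5 min replicate 2 (2.22) or with lists of equal length (9.34).

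Within one kind of library the values were as follows. In sites chosen without the unnumbered library, that library had a peak at 29.7% unstressed and the unnumbered 1 h library at 9.90%. With only the numbered libraries in rule and comparison, 1 h was 30.8 points below unstressed on the left-out scale (a difference of -30.8; exact permutation p = 0.3333, the smallest that 2 against 2 allows). A share lower at 1 h was thus seen both within the numbered and within the unnumbered libraries, and neither comparison has enough libraries for a test to pass the usual threshold.

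The members' share minus that of distal cohesin sites, both chosen with the library left out, was -1.61, -26.3 and -68.9 points unstressed and -27.4, -31.0 and -56.2 points at 1 h. The gap was present in each of the 6 libraries, before stress as well as after. Its change with stress was -5.93 points (exact permutation p = 0.8), and the sign turned without unstressed replicate 1 (9.29) or without the unnumbered 1 h library (3.06); with lists of equal length it was -2.05. In-gene minus intergenic members gave -0.638 ± 8.06 points unstressed and -2.83 ± 1.29 at 1 h (n = 3 each), a change of -2.19 points (exact permutation p = 0.7), and -0.771 with lists of equal length.

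**Figure D2:**
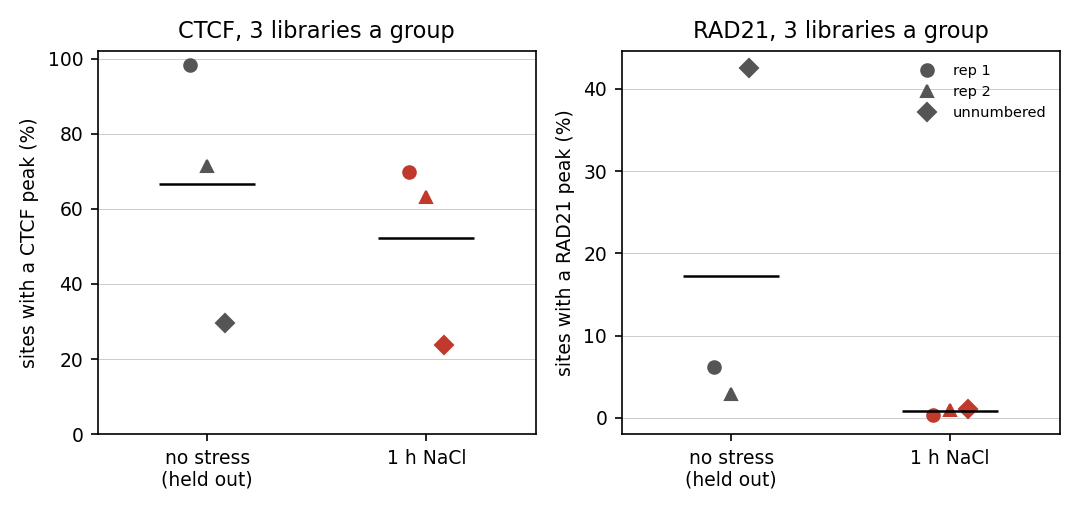
Percent of sites with a CTCF (left) or RAD21 (right) peak when each unstressed library is left out of the rule that picks the sites, in 3 unstressed and 3 libraries of 1 h NaCl; bars mark means. The CTCF groups overlap, and the 3 RAD21 values at 1 h (0.379% to 1.01%) lie below the unstressed ones (2.84% to 42.5%).

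Site by site, 1617 members (30.8%) had a CTCF peak in all of the 1 h lists, against 57.1% of all 25605 shared CTCF sites. No 1 h list held a peak at 622 members (11.9%), against 5.85% of all shared sites. A further 2454 members (46.8%) were absent from the unnumbered 1 h list alone, against 31.1% of all shared sites. With the rule applied again to lists of equal length, 5308 of the then 7602 members were in all of the 1 h lists. Without the unnumbered 1 h library the number kept in every 1 h list was 4071, and without the unnumbered unstressed RAD21 list it was 3139. The number in no 1 h list was 1037 without 1 h replicate 1, 1984 without unstressed CTCF replicate 2 and 7347 without the unnumbered unstressed CTCF library. In neither 7.5 min list were 591 members (11.3%), against 4.42% of all shared sites, and all 13 CTCF lists held 1185 members (22.6%), against 47.5%.

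Members that ranked higher before stress had a CTCF peak at 1 h more often in replicates 1 and 2, and in the unnumbered library from the 40th percentile up. Members were divided by the percentile of their fold enrichment in the unstressed list where they ranked lowest. Below the 20th percentile (1526 members), 72.6%, 55.4% and 23.4% had a CTCF peak at 1 h in replicates 1, 2 and the unnumbered library. Between the 20th and 40th (1889 members) the shares were 87.4%, 82.2% and 21.1%, and between the 40th and 60th (1273 members) 96.1%, 94.4% and 39.9%. Above the 60th (554 members) they were 99.6%, 99.5% and 73.5%. Distal cohesin sites above the 60th percentile had 99.7%, 99.4% and 85.4%, close to the members of that rank in replicates 1 and 2 and above them in the unnumbered library. Below the 20th percentile cohesin sites had 95.3%, 85.6% and 83.5%, above members of that class in each of the 3 libraries. Distal sites with RAD21 in 1 or 2 unstressed lists had 75.5%, 63.6% and 31.9% there, nearer to members than to cohesin sites. Above the 60th percentile they had 99.4%, 99.1% and 73.6%. The class is set by the lowest of 3 percentiles and does not match strength in each library: in the unnumbered unstressed list the median percentile was 42.0 for all members and 78.7 for all cohesin sites. In the unnumbered 1 h library the cohesin sites of the middle classes had 77.1% and 74.9%.

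**Figure D3:**
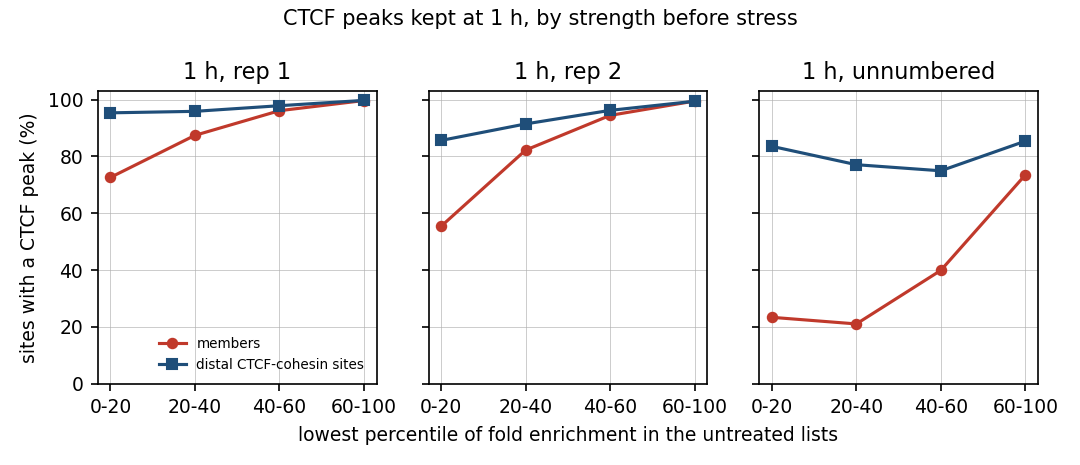
Percent of sites with a CTCF peak at 1 h of NaCl (vertical axis) by the lowest percentile of fold enrichment in the unstressed lists (horizontal axis), for members and distal CTCF-cohesin sites, in the 3 libraries of 1 h. In replicates 1 and 2 the lines meet above the 60th percentile, and in the unnumbered library members are lower in each class, between 21.1% and 73.5%.

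The strongest in-gene members lay in ABCB1 (a drug efflux transporter), PDE11A (a cyclic nucleotide phosphodiesterase), XRCC5 (the Ku80 DNA repair protein) and TMEM117. The site in ABCB1 (chr7:87564106-87564806) had folds of 52.8, 40.6 and 18.8 in the unstressed lists and was missing from 1 of the 13 CTCF lists, 1 h with triptolide. The site in PDE11A (chr2:177763555-177764177; folds 36.6, 27.9 and 19.2) was in all 13. So were the sites in XRCC5 (chr2:216114527-216115060; 42.6, 27.8 and 16.4), TMEM117 (chr12:44000088-44000977; 42.1, 40.5 and 16.3) and FECH (the last enzyme of haem synthesis; chr18:57557756-57558287; 41.5, 29.9 and 15.6). XRCC5 and FECH had no RAD21 peak in any of the 9 RAD21 lists outside the rule. The annotation used gives gene bounds, so exon and intron were not told apart. All coordinates are on hg38.

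Between genes, the strongest members were nearest to GGTLC2 (chr22:22692550-22693225; folds 41.8, 32.9 and 19.5), TMEM121 (chr14:106153305-106153904; 55.0, 39.7 and 19.01), NPHP4 (chr1:5514398-5515076; 52.4, 44.3 and 18.2) and LMX1A (chr1:165143258-165144034; 47.0, 30.2 and 18.0). All 4 were in all 13 CTCF lists. The site near GGTLC2 had no RAD21 peak in any list, and the other 3 had one in the unstressed triptolide list. The sites near GGTLC2 and TMEM121 lay within the immunoglobulin light chain lambda and heavy chain gene clusters.

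Some members of middle strength had no CTCF peak in any 1 h list. The site in USP24 (a deubiquitinase; chr1:55071445-55071890; folds 22.9, 14.7 and 7.90) was present at 7.5 min in replicate 1 and absent in replicate 2, absent at 30 min and in all 1 h lists, and present in both recovery lists and with triptolide unstressed. The sites in FMN1 (a formin; chr15:33007259-33007644), CLEC16A (chr16:10981715-10982128) and RASGRF2 (a Ras exchange factor; chr5:81207016-81207396) had the same 7 of 13 lists. Between genes, the sites nearest MAT2B (chr5:163978866-163979316) and ADCYAP1R1 (chr7:31128962-31129521) were absent from all lists under NaCl, the 7.5 min lists included, and present in both recovery lists. Those nearest ARPP21 (chr3:35924068-35924505) and EOMES (chr3:27943054-27943555) were in both 7.5 min lists and absent from the 30 min and 1 h lists.

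After 1 h of recovery the 1 CTCF library had a peak at 97.7% of members (interval 97.2% to 98.0%), against 98.9% of all shared CTCF sites. Of the 3572 members absent from the unnumbered 1 h list, 96.6% were present in recovery, against 97.5% of all shared sites absent from that list. With triptolide, 96.2% of members had a CTCF peak unstressed, 31.6% at 1 h and 80.6% in recovery, against 98.8%, 58.0% and 89.6% of all shared sites. Of the same 3572 members 73.0% were present in triptolide recovery, against 77.8% of all shared sites absent from the unnumbered 1 h list. The 1 h libraries with and without triptolide were close (31.6% and 31.9%), and 84.0% of the members present in the one without triptolide were present in the other, against 92.1% over all shared sites. Distal cohesin sites had 99.9% in recovery, and 99.96%, 80.1% and 98.1% with triptolide. Each of these groups is 1 library and has no replicate check.

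RAD21 peaks were found at few members at 1 h. There were 1, 22 and 14 members with a RAD21 peak in replicates 1, 2 and the unnumbered library (0.0191%, 0.420% and 0.267%), and 37 in any of them (0.706%). Over all shared CTCF sites the shares were 18%, 26.8% and 25%, and 33.4% in any. On the left-out scale the 1 h mean was 0.774% ± 0.345 (n = 3) and the unstressed mean 17.2% ± 22.02 (n = 3). All 3 values at 1 h lay below the 3 unstressed ones, a difference of -16.4 points (exact 2-sided permutation p = 0.1, the smallest possible). It was -8.69 points among numbered libraries (exact permutation p = 0.3333, the smallest possible) and -40.1 between the 2 unnumbered ones. With the rule applied again to lists of equal length the difference was 5.42 points with the opposite sign (exact permutation p = 0.2). The sites so chosen could hold RAD21 peaks weaker than the cut. Distal cohesin sites kept a RAD21 peak at 44.1% to 62.5% at 1 h.

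In recovery, RAD21 peaks were found at 2, 509 and 4 members (0.0382%, 9.71% and 0.0763% in replicates 1, 2 and unnumbered), so 1 library held nearly all of them, and its list of 20400 peaks was the longest of the 3. Over all shared CTCF sites the shares were 16.4%, 60.3% and 24.2%. The left-out mean was 4.88% ± 8.14 (n = 3), 12.3 points below unstressed (a difference of -12.3; exact permutation p = 0.5), and -17.0 without recovery replicate 2. With lists of equal length it was -0.127, and over replicates 1 and 2 with a replicate block 2.68, of the opposite sign.

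The library titled unstressed with triptolide was the one where most members had RAD21. It held a RAD21 peak at 2868 members, 54.7% (interval 53.4% to 56.1%), in a list of 40969 peaks, the longest for RAD21; a second label calls this library untreated. Among all shared CTCF sites 88.5% had a RAD21 peak there, among distal cohesin sites 99.99%, and among CTCF sites without cohesin at gene ends 59.3%. Cut to its 24931 strongest peaks, the length of the unnumbered unstressed list, it held a peak at 1097 members. This cut was chosen after seeing the data. The share of all shared CTCF sites at the same cut was not computed, so whether the drop is particular to members was not tested. In the full list the RAD21 peaks at members were weak, with a median percentile of 36.2 within their list against 87.6 at distal cohesin sites. Their summits lay a median of 31 bp from the CTCF summit, against 32 bp at cohesin sites. The share was higher at stronger CTCF sites, from 45.0% of members below the 20th percentile to 71.8% above the 60th. CTCF sites without cohesin at gene ends had 55.8% and 65.1% (43 sites) in these classes, and distal cohesin sites 99.9% and 100%. Among members it was alike in genes (55.0%) and between genes (54.4%).

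At 1 h with triptolide 0 of 5242 members had a RAD21 peak, which allows a share of up to 0.0572%, in the shortest list (3344 peaks). There 12.8% of all shared CTCF sites and 33.6% of distal cohesin sites had one. CTCF sites without cohesin at gene ends were as low as members, with 1 of 941 (0.106%). In triptolide recovery 824 members (15.7%) did, and 95.4% of these were among the 2868 of the unstressed triptolide list. Likewise 89.2% of the 509 members with RAD21 in recovery replicate 2 were among the 2868. Over all shared sites 71.0% had RAD21 in triptolide recovery, and the 2 overlaps were 99.6% and 99.3%. Over the 9 RAD21 lists outside the rule, 2279 members had a peak in none, 1951 in 1, 755 in 2, 245 in 3 and 12 in 4. At least 1 of these lists held a peak at 56.5% of members and 100% of distal cohesin sites. For distal sites with RAD21 in 1 or 2 unstressed lists the share was 98.5%. CTCF was found in all of the 1 h lists at 35.6% of members with RAD21 in the unstressed triptolide list and at 25.1% of the others; over all shared CTCF sites the same split gave 60.6% and 29.7%.

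**Figure D4:**
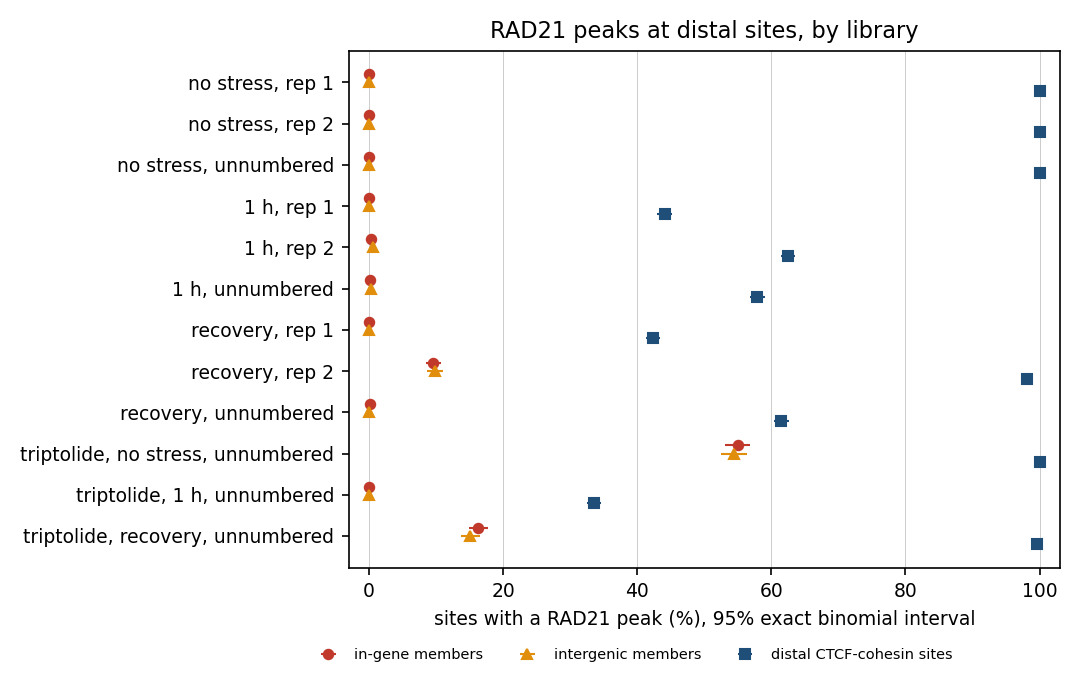
Percent of sites with a RAD21 peak (horizontal axis) in each of the 12 RAD21 libraries, for in-gene members, intergenic members and distal CTCF-cohesin sites, with 95% exact binomial intervals. The unstressed values are set by the rule; members exceed 1% in recovery replicate 2, unstressed triptolide and triptolide recovery.

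Among members with RAD21 in most lists were sites in ARFGEF3 (chr6:138287086-138287708) and MAVS (an adaptor of antiviral signalling; chr20:3855029-3855499), each with RAD21 at 1 h in replicate 2, in recovery replicate 2, and with triptolide unstressed and in recovery. The site in PVR (a cell adhesion receptor; chr19:44657070-44657770) and those nearest CHD6 (a chromatin remodeller; chr20:41734210-41734995) and TAF1B (chr2:9770266-9771150) had it in the unnumbered 1 h list in place of replicate 2. The sites in LMO1 (chr11:8247305-8247698) and nearest ADAMTS1 (an extracellular protease; chr21:26715678-26716334) had it in 2 recovery and 2 triptolide lists. The site nearest AMPH (chr7:38354126-38354824) had the same 4 lists as ARFGEF3. All of them had a CTCF peak in all of the 1 h lists.

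Pol II took no part in the rule. Unstressed, 28.0% and 30.8% of members lay in a Pol II region (replicates 1 and 2), and at 1 h 17.5% and 21.2%. All shared CTCF sites had 34.6% and 39.3% unstressed and 21.0% and 25.1% at 1 h. The groups did not overlap, 29.4% ± 2.02 against 19.4% ± 2.60 (n = 2 each), and the difference of -10.04 points gave p = 0.3333 in an exact permutation test, the smallest that 2 against 2 allows. The regions covered 291.9 and 257.2 Mb unstressed and 212.3 and 261.7 Mb at 1 h. Most 1 h regions were weak, 80.0% and 92.4% of them having a deposited −log10 q under 1.3, against 50.0% and 48.5% unstressed. Both unstressed lists held a region at 965 members (18.4%), against 23.9% of all shared CTCF sites, and 452 of these 965 (46.8%) had none at 1 h, near the 44.7% of all such shared sites.

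In these 4 libraries the Pol II difference at members was larger in genes than between them. Other CTCF sites were not split by position, so whether this is particular to members was not tested. In-gene members had 35.5% and 38.4% unstressed and 19.3% and 22.8% at 1 h, while intergenic members had 19.8% and 22.7% unstressed and 15.6% and 19.5% at 1 h. In-gene minus intergenic was 15.7 points in both unstressed libraries and 3.74 and 3.25 at 1 h, a change of -12.2 points (exact permutation p = 0.3333, the smallest possible with n = 2 each; added after the values had been seen). CTCF was in all of the 1 h lists at 37.8% of members with Pol II in both unstressed lists and at 28.5% of members with Pol II in neither, and over all shared sites at 65.2% and 51.1%. For in-gene members the 2 shares were 33.8% and 28.5%, and for intergenic members 46.5% and 28.5%.

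**Figure D5:**
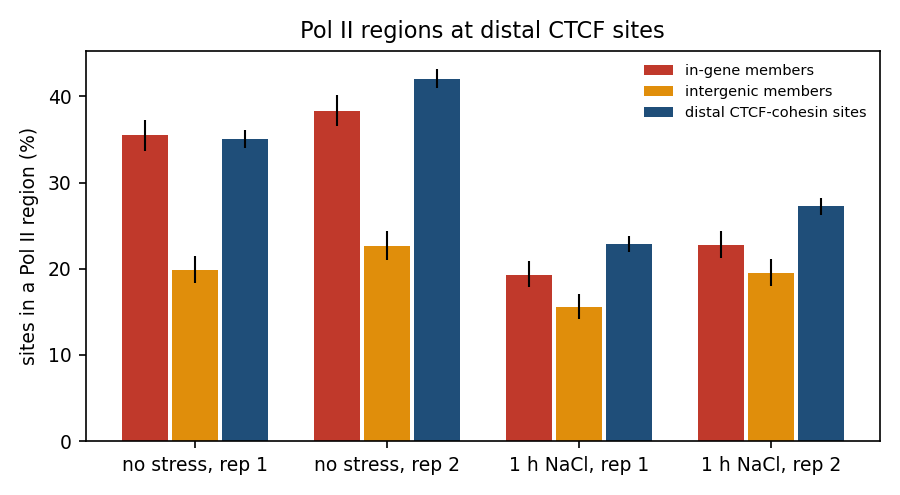
Percent of in-gene members, intergenic members and distal CTCF-cohesin sites that lie in a Pol II region, in 2 unstressed and 2 libraries of 1 h NaCl, with 95% exact binomial intervals. In-gene members have 35.5% and 38.4% unstressed and 19.3% and 22.8% at 1 h, and intergenic members sit between 15.6% and 22.7% throughout.

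The 2727 in-gene members lay in 2268 genes, of which 1867 held 1, 311 held 2 and 90 held 3 or more. THSD4 and TTC34 held 6 each, and ANKRD24, ARHGAP22, CACNA1A (a neuronal calcium channel), KSR2 (a scaffold of MAP kinase signalling) and RBFOX1 (a neuronal splicing factor) held 5 each. These genes are of very different length, from 42.1 kb for ANKRD24 to 2474 kb for RBFOX1. THSD4 had 2 distal cohesin sites and RBFOX1 and KSR2 4 each, while TTC34, ANKRD24, ARHGAP22 and CACNA1A had none.

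Members were then counted by the gene they lay in or nearest to, over lists of genes, beside their 20.5% share of all shared CTCF sites. The shared sites counted include those within 1 kb of a gene end, which the rule bars from membership. The share among distal sites alone (23.6% over all of them) was not computed for these lists. A low share in a list can therefore come from the distance rule and is no measure of cohesin. Among 20 genes of luminal breast identity there were 6 members of 33 shared CTCF sites (18.2%). The site nearest ESR1, the oestrogen receptor (chr6:151647982-151648387; folds 21.4, 8.98 and 9.65), was in all 13 CTCF lists and had RAD21 with triptolide unstressed. The sites nearest GATA3 (chr10:9211235-9211742, 1136 kb away), in TRPS1 (chr8:115586873-115587369) and nearest MYB (chr6:135162640-135163079) were absent from the unnumbered 1 h list and had no RAD21 peak in any list. GATA3, TRPS1 and MYB encode transcription factors.

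Among 13 genes of the osmolyte pathway there were 3 members of 20 sites (15.0%). The site 57.7 kb from SGK1, a kinase of ion transport (chr6:134111027-134111522; folds 34.1, 27.2 and 10.5), was in all 13 CTCF lists with no RAD21 in any. The site in WNK1, a kinase of cell volume control (chr12:816328-816814), was missing from triptolide recovery alone. The site in SLC6A6, the taurine transporter (chr3:14405831-14406212; folds 8.90, 3.44 and 4.23), was weak, lay in a Pol II region in all 4 lists, and was in 6 of 13 CTCF lists, absent from both 7.5 min and the 30 min lists and present at 1 h in replicates 1 and 2.

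Among 25 immediate early and MAP kinase genes there were 3 members of 46 sites (6.52%), in KLF10 and ATF3 and nearest KLF6. The list of 19 CTCF, cohesin and loop factor genes had 8 of 34 (23.5%), among them a site in PDS5B (a cohesin regulator; chr13:32650689-32651154) and sites nearest SMC3 (a cohesin subunit; chr10:110556850-110557422), MAU2 (a cohesin loader subunit; chr19:19361024-19361508) and ZNF143 (chr11:9534895-9535547). The last 3 had CTCF in all of the 1 h lists, and PDS5B in 2 of them. HOX genes had 2 of 25 (8.00%), in HOXD11 and nearest HOXB9, both in all 13 CTCF lists. The clustered protocadherins, whose promoter choice is a known role of CTCF and cohesin, had 1 of 31 (3.23%), nearest PCDHB6. Imprinted genes had 2 of 22 (9.09%), nearest SNRPN and GRB10, and ZNF genes 83 of 449 (18.5%).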

How the data were processed

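Members, gene lists and tests were chosen with earlier results of these data known. CTCF, RAD21 and Pol II ChIP-seq of T47D cells gave 29 lists from 41 samples (13 CTCF, 12 RAD21, 4 Pol II; the 12 inputs have no list). Per the submitters' processing notes, cutadapt, Bowtie2 2.2.6 and MACS2 were used on hg38; calling thresholds and the input paired with each library: not given in the sources used here. The deposited lists hold a fold enrichment (ratio) and −log10 p and −log10 q values for each peak, called per library by the authors. Lists were merged with a 1 bp overlap on chromosomes 1 to 22 and X, and 19974 RefSeq protein-coding genes gave gene ends. Shares of sites with a peak were compared by exact 2-sided permutation over libraries. Each unstressed library was left out of the rule in turn and measured at sites chosen by the others. No 2 lists were identical. Single libraries have exact Clopper-Pearson 95% intervals, and a 0 a limit of 3 counts. The code was tested on simulated lists. Python 3.11.15, pandas 2.3.3 and numpy 2.4.6 were used. Named sites were, in and between genes: the 4 with the highest lowest percentile among all members, among those in no 1 h list and among those in every CTCF list; the 4 with RAD21 in most lists; the 2 on each side of 1 kb; and the 4 strongest of each gene list. No genome sequence was used, so motifs were searched in promoter windows alone. Alternatives were overlap, −log10 q of at least 5, equal list length, 5 kb from gene ends, RAD21 within 1 kb, libraries left out, numbered or unnumbered libraries, and a replicate block.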

Additional observations from a re-analysis of the deposited data

Results flagged for a closer look

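The RAD21 library titled unstressed with triptolide entered no test. Over the 3 sets of sites chosen with 1 unstressed RAD21 library left out, it had a RAD21 peak at a mean of 61.8% of sites. The shares were 57.2%, 55.8% and 72.5% in the sets without replicate 1, replicate 2 and the unnumbered library. The highest left-out unstressed value was 42.5%, from the last of these sets alone. Over all shared CTCF sites this library had 88.5% and the unnumbered unstressed library 71.6%, so the higher share was not confined to members. The triptolide library is the only one of its group, its list is the longest for RAD21 (40969 peaks), and its title and a second label disagree on triptolide. With 24931 peaks it held a peak at 1097 of the 5242 members in place of 2868. The share of all shared CTCF sites at that length was not computed. The part of list length and of the label in the 61.8% was not tested beyond that.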

How the results depend on the processing

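Counts of members rest on the libraries in the rule. Leaving out 1 library at a time gave 5348 to 17756 members, 1617 to 4071 with CTCF in all the 1 h lists left and 624 to 7347 in none. With only numbered libraries the 3 counts were 24421, 13388 and 8458, and with only the unnumbered library of each group 13095, 4497 and 8598; fewer lists in the rule admit more sites. Lists of equal length gave 5308 members in all 1 h lists of 7602. They turned the RAD21 difference at 1 h to 5.42 points and the CTCF difference at 7.5 min to 9.34. They left -2.16 for CTCF at 1 h, -2.05 for members against cohesin sites and -0.127 for RAD21 in recovery. The rule was applied again to the cut lists, where sites with RAD21 peaks weaker than the cut counted as without cohesin. These values therefore do not isolate list length at the members, and the cause was not tested. Leaving out 1 library gave ranges of -45.6 to 1.36 points for CTCF at 1 h, -36.7 to 9.29 for members against cohesin sites, -35.8 to 8.19 for CTCF at 7.5 min, -11.7 to -0.813 for in-gene against intergenic, -28.9 to -9.998 for RAD21 at 1 h, -22.8 to -8.13 for RAD21 in recovery and -11.9 to -8.20 for Pol II. Overlap of 50% of the shorter interval, −log10 q of at least 5, 5 kb from gene ends and no RAD21 within 1 kb turned no sign and moved no count by over 1.5 times. Titles number only replicates 1 and 2, and no label says that a number marks a shared culture or day; deviations of same-numbered unstressed and 1 h libraries correlated at 0.126 and 0.381 for CTCF and -0.0454 and 0.203 for RAD21, and those of the unnumbered libraries at 0.345 and 0.0894. The unnumbered libraries share no number and were left out of the block. With a replicate block over these 2 pairs (smallest possible p = 0.5, exact sign flips) the differences were -18.4 points for CTCF and -3.85 for RAD21 at 1 h, -15.2 for members against cohesin sites, -0.0877 for in-gene against intergenic, -20.0 for CTCF at 7.5 min and -10.04 for Pol II, and RAD21 in recovery turned to 2.68. No test passed 0.05 under any alternative, and with these group sizes none could. Without read depth, absence of a peak cannot be given a limit per site.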

Other observations

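Some of the strongest intergenic members lay in immunoglobulin gene clusters, and the antigen receptor loci, which blood lymphocytes rearrange, were therefore counted after the values had been seen. In the heavy chain locus IGH (chr14:105586937-106879844) 33 of 49 distal shared CTCF sites were members (67.3%), in the lambda light chain locus IGL (chr22:22026076-22922913) 21 of 37 (56.8%), in the T cell receptor locus TRG (chr7:38240024-38368055) 6 of 9 (66.7%), in TRA 7 of 10, in TRB 7 of 10 and in IGK 5 of 10. Over all distal shared sites the share was 23.6%. In IGH 24 of the 33 members had CTCF in all of the 1 h lists (72.7%), in TRG 5 of 6 and in IGL 9 of 21, against 30.8% of all members; in IGK, TRA and TRB it was 1 each. The median lowest percentile of fold enrichment was 45.7 in IGH, 48.1 in IGL and 48.4 in TRG, against 31.9 over all members. In IGH 15 of the 33 had RAD21 in the unstressed triptolide list. Sites within a locus share their neighbourhood and repeated segments and are not independent.

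Chromosome 19 had the highest share of members among its distal shared CTCF sites, 35.9%, followed by X with 29.6%, and chromosomes 5 and 3 the lowest, 19.2% and 19.4%.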
